A study of Mus musculus with 45 samples.

Results

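Solute carrier (SLC) genes encode membrane transporters, and they were taken here by symbol from mouse embryos cut into sections shortly after implantation. A gene was a member when its symbol began with Slc, a family number, the letter a and a member number. Slc2a1, Slc2a3 and Slc22a18 were left out. The rule found 147 of 10176 genes in the E5.25 table, 185 of 13060 in the E5.5 table and 203 of 13618 in the E5.75 table. Counted over all stages there were 237 members, of 15997 genes, and 125 members were listed at every stage. The rule also takes 6 genes at E5.75 that are not carriers themselves, such as the scaffold gene Slc9a3r2, and leaves out families numbered with other letters, such as Slc35b to Slc35f and Slco.

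Solute carriers move amino acids, nucleosides, ions, metals, sugars and metabolites across the cell surface and across the membranes of organelles. Slc7 and Slc38 members carry amino acids, Slc28 and Slc29 nucleosides, Slc30 and Slc39 zinc, Slc31 copper and Slc16 lactate and other monocarboxylates. The Slc25 family works in the inner mitochondrial membrane, where it exchanges ADP for ATP and brings in phosphate and metabolites. In the early mouse embryo these carriers supply the fast-growing epiblast, from which the body forms, and the extraembryonic ectoderm and ectoplacental cone, which build the placenta. The visceral endoderm (VE), an outer layer of absorptive cells, surrounds both.

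The study followed expression along the proximal-distal axis in 3 closely spaced stages named by embryonic day, E5.25, E5.5 and E5.75. The embryos were untreated, no strain is given, and the labels name no more than 1 embryo per stage. Frozen embryos were cut into numbered sections, pieces were cut out by laser microdissection, and Smart-seq2 was used, which copies whole transcripts from a few cells. Section numbers were 7 in the youngest stage, 9 in the middle stage and 17 in the oldest, which also had 2 libraries marked VE, from sections 6 and 7. Its sections 9 and 13 were not analysed here. At E5.5 all sections but section 1 are labelled as parts A and B, which were joined or averaged to 1 value per section. Each section is 1 position without a replicate, so p-values describe the trend over the sections of an embryo and not differences among embryos. The labels do not say which end of the axis section 1 lies at, and directions are therefore given in section number. Values are levels on the log2(FPKM + 1) scale unless stated, FPKM being fragments per kilobase scaled to library size, and a change is the fitted difference in log2 from the lowest to the highest section.

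The lowest sections and the VE libraries held few detected genes. At E5.75, members with an FPKM of at least 1 numbered 34 and 38 in sections 1 and 2, 55 to 115 in the other sections, and 21 and 22 in the VE libraries. At E5.5 they numbered 19 and 38 in sections 1 and 2 and 47 to 89 elsewhere, and at E5.25 they ranged from 13 in section 4 to 78 in section 6. Over all genes tested the median change was above 0 at each stage, 1.45 at E5.25, 1.22 at E5.5 and 0.80 at E5.75. A further fit also held each library's count of detected genes, given beside the counts below as the fit with detection as a covariate. That count itself was higher at higher section numbers, such as 2288 genes in section 1 and 6339 in section 10 of E5.5. The fit therefore cannot cleanly separate detection from position. In section 1 of E5.75, 4 of 7 epiblast markers were listed at 0, among them Pou5f1, the pluripotency factor Oct4, while Dnmt3b was at 6.66, Pou3f1 at 4.77 and Otx2 at 4.13. The log2 of the summed FPKM of the epiblast markers plus 1 was 7.17 there, 7.74 in section 2 and 8.58 to 9.49 in sections 3 to 8. The same sum for visceral endoderm markers was 7.12 in section 1, with 4 of 12 markers above 0 and Apoa1 at 6.97, and 6.04 in section 2. The tables hold no counts, so a value of 0 is given as a listing of 0 and sequencing depth is unknown.

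At E5.75 several amino acid, zinc and copper carriers rose with section number, as did 4 of 36 mitochondrial carriers (11.1%). The cationic amino acid transporter Slc7a3 and the anion exchanger Slc4a3 fell. Of 163 members tested, 27 rose (16.6%) and 2 fell (1.23%), beside 18.9% and 2.07% of all genes tested (limma, adjusted p under 0.05). The members' median change was 0.93. By class, 7 of 25 amino acid carriers rose and 1 fell, 9 of 43 ion and metal carriers rose and 1 fell, 4 of 36 mitochondrial carriers rose and 1 of 6 nucleoside carriers rose. Among the others, 2 of 16 sugar and monocarboxylate carriers, 3 of 27 carriers of other substrates, 1 of 5 members that are not carriers and 0 of 5 nucleotide sugar carriers rose. The share of all tested members that rose was near that of all genes. Quantile normalization moved the median change of all genes from 0.80 to 0.16. After it 13 members rose and 5 fell, beside 7.58% and 4.48% of all genes tested. With detection as a covariate 11 members rose and 2 fell, beside 3.63% and 1.96% of all genes tested. Without section 1, 21 rose and 4 fell. Of the 29 calls, 11 passed in every alternative run, those of Slc7a1, Slc7a3, Slc7a8, Slc38a4, Slc39a1, Slc31a1, Slc31a2, Slc25a4, Slc16a1, Slc22a17 and the scaffold gene Slc9a3r2.

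**Figure D1:**
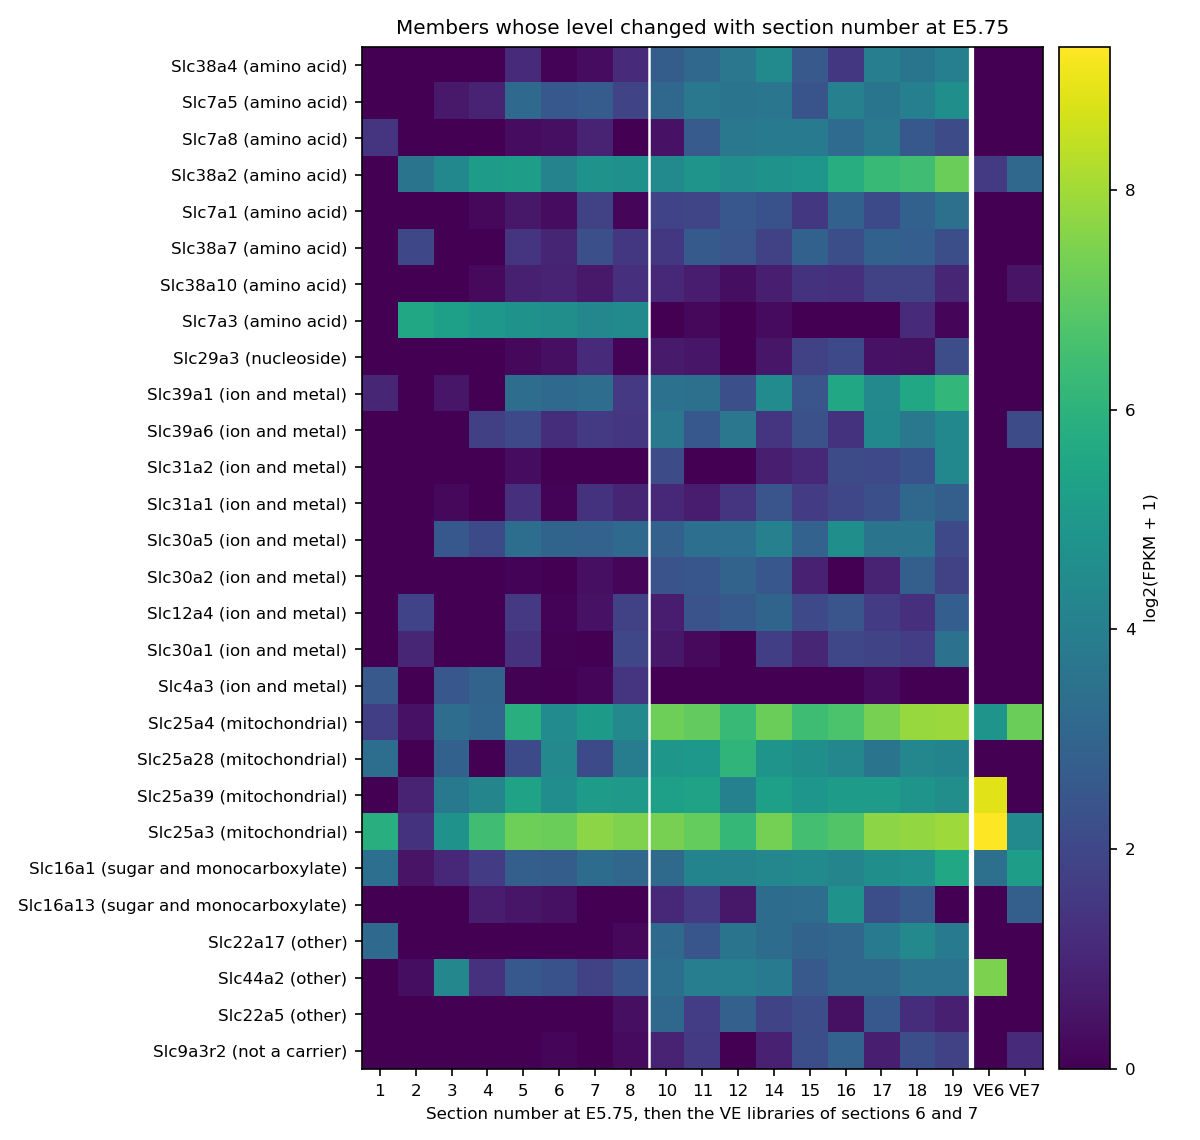
Level of 28 of the 29 members that rose or fell with section number at E5.75, as log2(FPKM + 1) in color, in 17 sections and, right of the thick line, in the VE libraries of sections 6 and 7. The thin line lies between sections 8 and 10. Slc7a3 is at 4.30 to 5.58 in sections 2 to 8 and at 1.14 or less from section 10 on, while Slc25a4 is at 6.27 or more from section 10 on.

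Tissue markers also changed along these sections. Of 7 epiblast markers 6 fell, and their summed level, as log2(summed FPKM + 1), lay at 7.17 to 9.49 in sections 1 to 8 and at 5.23 to 7.31 in sections 10 to 19. Of 7 extraembryonic ectoderm markers 5 rose, with sums of 0 to 3.09 and 7.27 to 8.51, and of 7 ectoplacental cone markers 6 rose, with sums of 2.82 to 8.61 and 8.17 to 11.26. Pou5f1 was at 6.17 to 7.53 in sections 2 to 8 and at 3.70 or less from section 10 on. Of 11 visceral endoderm markers 0 passed in either direction (sums of 1.07 to 7.12 and 0 to 7.05), of 3 distal and anterior visceral endoderm markers 1 fell, and of 4 parietal endoderm markers 2 rose. Cd52, the 1 blood cell marker in the table, rose to 4.98 in section 19, and Prl8a2, of 4 decidual markers tested, rose to 7.46 there. The part of these cell types in the members' changes was not tested. In tissue pieces such as these, fewer cells of a type and less RNA per cell cannot be told apart.

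Among the amino acid carriers, the cationic transporters Slc7a3 and Slc7a1, which both bring in arginine and lysine, changed in opposite directions at E5.75. Slc7a3 (CAT3), on chromosome X from 101079146 to 101090452 (GRCm38), was at 5.58, 5.24, 4.95, 4.77, 4.59, 4.30 and 4.45 in sections 2 to 8. It was listed at 0 in section 1, and in sections 10 to 19 it ran from 0 to 1.14 with a median of 0. All of sections 2 to 8 thus lay above all of sections 10 to 19. Slc7a3 fell by 5.12 ± 1.17 (log2 ± SE, n = 17 sections, adjusted p = 0.00392, limma), and the fall kept its adjusted p under 0.05 in all 28 alternatives, with adjusted p between 3.97e-05 and 0.0132. Slc7a1 (CAT1), on chromosome 5, had a lowest, median and highest level of 0, 0.16 and 1.80 in sections 1 to 8 and of 1.50, 2.34 and 3.45 in sections 10 to 19. The ranges overlapped through section 7, at 1.80. Slc7a1 rose by 3.27 ± 0.57 (adjusted p = 0.000385), also in all 28 alternatives. Within each library, the level of Slc7a3 minus that of Slc7a1 was 2.51 to 5.58 in sections 2 to 8 and -3.32 to -1.50 in sections 10 to 19.

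**Figure D2:**
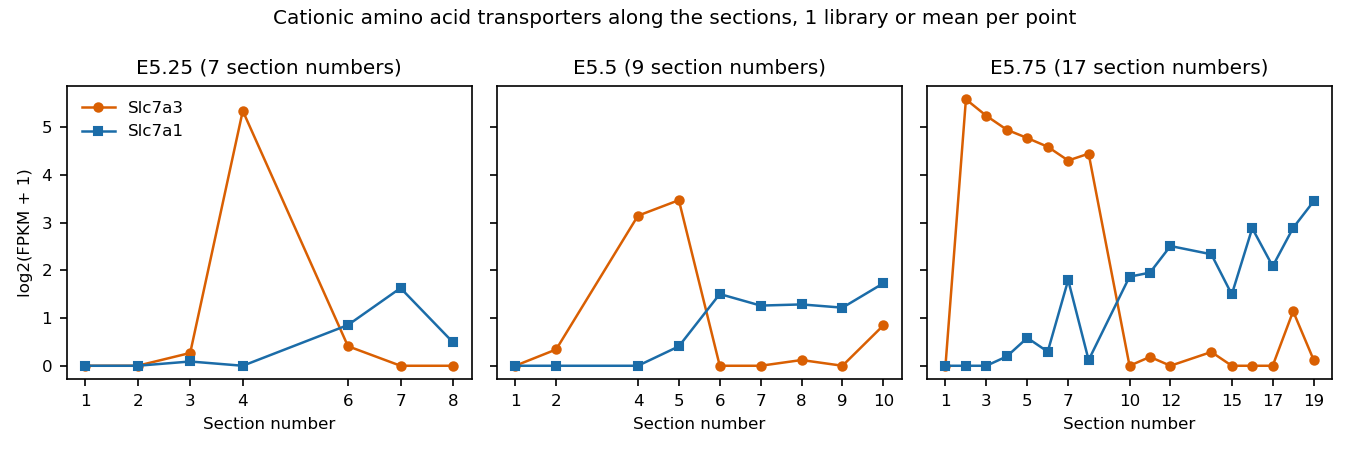
Level of the cationic amino acid transporters Slc7a3 (circles) and Slc7a1 (squares) by section number at each stage, as log2(FPKM + 1), 1 library per point except E5.5, where points are joined or averaged parts of a section. Slc7a3 peaks at 5.34 in section 4 of E5.25 and at 3.47 in section 5 of E5.5, and Slc7a1 is higher than Slc7a3 from section 10 on at E5.75.

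At the earlier stages Slc7a3 also had its highest values below section 6, without a trend that passed. At E5.5 it was at 3.14 and 3.47 in sections 4 and 5, at 0.34 and 0 in sections 2 and 1, and at 0.85 or less from section 6 on (change -0.68 ± 1.14, adjusted p = 0.66, limma). At E5.25 it was at 5.34 in section 4 and at 0.41 or less in the other 6 sections, and it was not tested because an FPKM of 1 was reached in 1 section. Slc7a1 rose at E5.5 by 1.86 ± 0.59 (adjusted p = 0.026). It was listed at 0 in sections 1, 2 and 4, at 0.41 in section 5 and at 1.22 to 1.73 in sections 6 to 10. The differences between stages were not tested, since the tables were normalized separately.

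The neutral amino acid transporters Slc7a5 and Slc7a8 rose at E5.75, while the change of their shared partner Slc3a2 did not pass. Slc7a5 (LAT1), which carries leucine and other essential amino acids, had a lowest, median and highest level of 0, 1.42 and 3.17 in sections 1 to 8 of E5.75, and of 2.42, 3.67 and 4.63 in sections 10 to 19. It rose by 3.80 ± 0.67 (adjusted p = 0.000487), a call lost in 1 of 28 alternatives, with detection as a covariate (adjusted p = 0.115). Slc7a8 (LAT2) was at 1.41 or less in sections 1 to 8, at 0.44 in section 10 and then at 2.17 to 3.82 in sections 11 to 19. It rose by 3.69 ± 0.78 (adjusted p = 0.00204). Slc3a2, the heavy chain (4F2hc) that carries both to the cell surface, was high throughout, at 4.15 to 6.10 in sections 1 to 8 and 4.52 to 6.23 in sections 10 to 19, and its change of 0.72 ± 0.57 did not pass (adjusted p = 0.38). At E5.5 Slc7a5 also rose, by 4.15 ± 0.91 (adjusted p = 0.00384), from 0.12 or less in sections 1 to 5 to 2.81 to 3.54 from section 6 on, with no overlap. Slc3a2 there was at 4.60 to 6.59 (change -1.05 ± 0.87, adjusted p = 0.36). Slc7a6 (y+LAT2), another partner of Slc3a2, rose at E5.5 by 2.72 ± 0.80, a call lost without section 1.

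The sodium-coupled neutral amino acid transporters of the Slc38 family rose in 4 of 7 members at E5.75, beside 18.9% of all genes tested. Slc38a4 (SNAT4), an imprinted gene expressed from the paternal allele and known for its role in the placenta, lay at 0 to 1.16 in sections 1 to 8 and at 1.51 to 4.44 in sections 10 to 19, with no overlap. It rose by 4.42 ± 0.72 (adjusted p = 0.00022). Slc38a2 (SNAT2), which is induced when amino acids are short, stood much higher: it was listed at 0 in section 1 and ran from 3.57 to 5.22 in sections 2 to 8. From section 10 on it ran from 4.46 to 7.20, highest in section 19, and it rose by 3.42 ± 0.79 (adjusted p = 0.00433). The other members that rose were Slc38a7, a glutamine transporter of lysosomes (2.32 ± 0.63), and Slc38a10 (1.38 ± 0.45). With detection as a covariate the calls of Slc38a2 and Slc38a7 were lost (adjusted p = 0.255 and 0.231, limma). That of Slc38a2 was also lost with sections 10 and up set against 1 to 8, and that of Slc38a7 after quantile normalization. For Slc38a10, 10 of 27 alternatives ended the call, those without section 1, 2, 3, 17 or 18 included. Slc38a4 was listed at 0 in sections 1 to 4 of E5.25 and stood at 3.15, 3.95 and 3.78 in sections 6, 7 and 8, and its change of 4.80 ± 1.34 there did not pass (adjusted p = 0.0568). At E5.5 Slc38a4 rose by 3.19 ± 0.80 and Slc38a1 (SNAT1) by 2.36 ± 0.70, the latter not without section 1 or 10.

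The remaining amino acid carriers named here did not pass at E5.75. Slc7a14, a lysosomal member of the cationic family, had the highest mean FPKM of the amino acid class at E5.75, 41.6. It was at 3.56 in section 1, at 5.49 to 6.47 in sections 2 to 8 and at 3.75 to 5.45 in sections 10 to 19. Its change of -1.50 did not pass (adjusted p = 0.101), but without section 1 Slc7a14, Slc1a3 and Slc25a33 passed as falling beside Slc7a3, 4 members in all. Without sections 1 and 2 the change of Slc7a14 was -2.21 ± 0.40 (adjusted p = 0.000938). Slc1a3 (GLAST), a glutamate transporter, reached 2.98 in sections 1 to 8 and 0.25 in sections 10 to 19. Slc1a5 (ASCT2), a glutamine transporter, ranged from 2.65 to 5.40 and from 3.21 to 4.87 on the respective sides of section 9, with a change of -0.25 ± 0.66 (adjusted p = 0.81). Of 7 genes of the amino acid stress response, 4 rose at E5.75, among them the factor Atf4, which activates carriers and synthetases when amino acids are scarce (3.52, adjusted p = 0.01), and 0 fell.

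**Figure D3:**
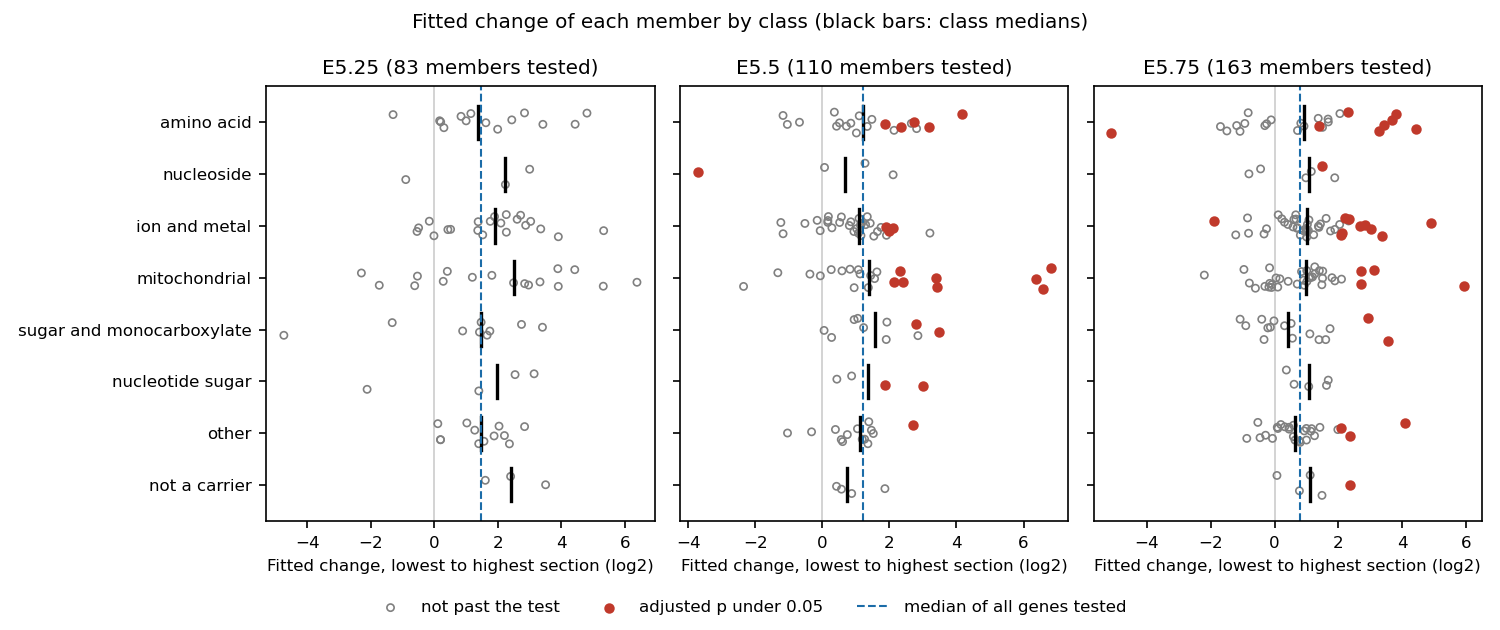
Fitted change from the lowest to the highest section (log2) of each tested member, by class, with 1 panel per stage. Filled points have a limma adjusted p under 0.05, black bars are class medians and the dashed line is the median of all genes tested (1.45, 1.22 and 0.80); 0, 22 and 29 points are filled.

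In the mitochondria, the ADP/ATP carrier Slc25a4 had the largest rise of the 163 members tested at E5.75. Slc25a4 (ANT1), on chromosome 8 from 46207168 to 46211062, had a lowest, median and highest level of 0.47, 3.86 and 5.82 in sections 1 to 8 and of 6.27, 7.19 and 7.90 in sections 10 to 19, with no overlap. It rose by 5.95 ± 0.79 (adjusted p = 2.02e-05), in all 28 alternatives. Slc25a5 (ANT2), which does the same exchange and is the form of dividing cells, was at 1.92 to 5.89 and at 2.08 to 6.74 on the respective sides, with a change of 1.01 ± 0.91 (adjusted p = 0.44), and the difference between the changes of the 2 genes was not tested. In FPKM, which is per length, Slc25a4 made up 3.79% to 73.1% of the sum of both in sections 1 to 8 and 68.5% to 96.3% in sections 10 to 19. A processed copy, Slc25a5-ps, is annotated, so reads of Slc25a5 may have been split.

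**Figure D4:**
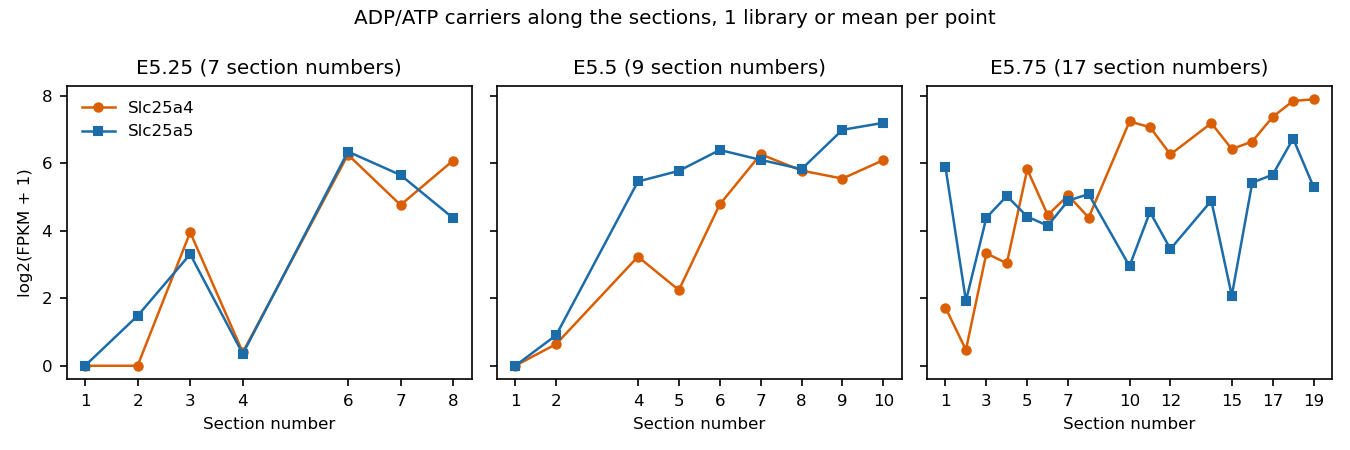
Level of the ADP/ATP carriers Slc25a4 (circles) and Slc25a5 (squares) by section number at each stage, as log2(FPKM + 1), 1 library per point except joined or averaged parts at E5.5. Both climb at E5.5, to 6.27 and 7.20 at the highest, while at E5.75 Slc25a4 is above Slc25a5 in each section from 10 on.

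Other mitochondrial carriers that rose at E5.75 were Slc25a28 (mitoferrin 2), an iron importer (3.13 ± 0.96), Slc25a39, needed for mitochondrial glutathione (2.72 ± 0.91), and Slc25a3, the phosphate carrier (2.72 ± 0.91). Slc25a3 had the highest mean FPKM of any member, 133. It was at 1.37 in section 2, at 4.79 in section 3 and at 5.83 to 7.94 elsewhere, and its rise did not pass without section 2, 3, 17, 18 or 19. The call of Slc25a28 was lost without section 2, and that of Slc25a39 without section 1, 2, 14 or 17. With detection as a covariate the changes of Slc25a39 and Slc25a3 were -0.66 and 0.21. The other 32 of 36 tested mitochondrial carriers did not pass. Slc25a33, a pyrimidine nucleotide carrier, had the most negative change among them, -2.20 ± 0.83 (adjusted p = 0.0605).

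At E5.5, 21 of 110 tested members rose (19.1%) and 1 fell (0.909%), beside 28.3% and 2.61% of all genes tested, and the median change of the members was 1.13. The members that rose were 8 of 22 mitochondrial, 5 of 20 amino acid, 3 of 32 ion and metal, 2 of 4 nucleotide sugar, 2 of 10 sugar and monocarboxylate and 1 of 14 other carriers. Slc25a5, Slc25a4 and Slc25a3 had the largest rises, 6.81 ± 1.19, 6.59 ± 1.01 and 6.37 ± 1.06. All were listed at 0 in section 1, as was Gapdh, and reached 7.20, 6.27 and 6.52. Slc25a3 was at 1.58 in section 2, at 4.45 and 4.38 in sections 4 and 5 and at 6.24 to 6.52 from section 6 on. Slc25a1, the citrate carrier that exports acetyl units for lipid synthesis, was at 1.44 or less up to section 5 and at 2.57 to 3.69 from section 6 on, and rose by 3.40 ± 0.95. Slc25a39, Slc25a11, Slc25a28 and Slc25a38 rose by 2.13 to 3.43. Slc35a4 and the CMP-sialic acid carrier Slc35a1 rose by 2.99 ± 0.87 and 1.87 ± 0.65, Slc50a1, a sugar carrier, by 2.78 ± 0.80, and Slc11a2 (DMT1), an iron importer, by 1.97 ± 0.71. Of 9 genes of mitochondrial pores and import, 8 rose at E5.5 and 7 at E5.75, with 0 falling at either stage. Of the markers, 3 of 7 for extraembryonic ectoderm, 4 of 6 for ectoplacental cone, 1 of 3 for parietal endoderm and 1 of 1 for blood rose at E5.5. In the other direction 1 of 10 for visceral endoderm, 1 of 3 for distal and anterior visceral endoderm and 1 of 4 for decidua fell, and 0 of 7 for epiblast passed. Their part in the members' changes was not tested. With detection as a covariate 6 of the 22 called changes at E5.5 turned sign, those of Slc25a39, Slc25a11, Slc25a28, Slc25a1, Slc11a2 and the falling Slc28a3. In that fit 0 members and 0 genes of the table passed at E5.5, where the unadjusted p was under 0.05 for 411 genes of 8251. After quantile normalization 4 members rose and 1 fell, beside 10.2% and 3.93% of all genes tested. Without section 1, where 19 members were detected, 9 members rose and 0 fell, and without section 10, 10 rose. Of the 22 calls, 0 passed in every alternative run.

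Zinc and copper carriers made up 7 of the 9 ion and metal carriers that rose at E5.75. By family, 3 of 8 tested Slc30, 2 of 11 Slc39 and 2 of 2 Slc31 members rose, beside 18.9% of all genes tested. Slc39a1 (ZIP1), a zinc importer of the cell surface, was at 0 to 3.31 in sections 1 to 8 and at 2.26 to 6.14 in sections 10 to 19, highest in sections 16, 18 and 19. It rose by 4.91 ± 0.80 (adjusted p = 0.000231), and a processed copy, Slc39a1-ps, is annotated. Slc39a6 (ZIP6), another importer, rose by 3.38 ± 0.76, from 2.05 or less in sections 1 to 8 to a median of 3.69 in sections 10 to 19. Both copper carriers of the Slc31 family rose. Slc31a1 (CTR1), the copper importer, was at 0 to 1.35 and at 0.74 to 3.14 on the respective sides and rose by 2.83 ± 0.52 (adjusted p = 0.000671). Slc31a2 (CTR2) was at 0.29 or less and then at 0 to 4.34, highest in section 19, and rose by 3.01 ± 0.64 (adjusted p = 0.00214). The calls of Slc39a1, Slc31a1 and Slc31a2 held in every alternative run. Of 6 metal handling genes outside the family, 4 rose at E5.75, the metallothioneins Mt1 (4.24) and Mt2 (2.12), the transferrin receptor Tfrc (4.13) and the ferritin chain Fth1 (6.03).

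Of 8 zinc exporters of the Slc30 family tested at E5.75, 3 rose. Slc30a1 (ZnT1), which moves zinc out of the cell, was listed at 0 in 4 of 8 sections up to section 8, where it reached 1.97, and had a median of 1.69 and a highest level of 3.45, in section 19, from section 10 on. It rose by 2.09 ± 0.62 (adjusted p = 0.0205), a call lost without section 19, and it shares 468 exonic bases with the antisense gene 1700034H15Rik, whose reads cannot be told apart in a library without strand. Slc30a2 (ZnT2), which loads vesicles, was at 0.38 or less in sections 1 to 8 and at 0 to 2.98, with a median of 2.39, in sections 10 to 19, and rose by 2.20 ± 0.72, a call ended by 10 of 28 alternatives, those without section 1, 2, 3, 4 or 18 included. Slc30a5 (ZnT5), which supplies the secretory pathway, was at 0 in sections 1 and 2 and at 2.06 to 4.63 elsewhere, and rose by 2.33 ± 0.77. With detection as a covariate the change of Slc30a5 was -0.05, and its call was also lost without section 1, 2, 14, 16, 17 or 18. Slc39a7 (ZIP7), which releases zinc from the endoplasmic reticulum, had the highest mean FPKM of the class, 36.05, and did not pass (0.23 ± 0.80, adjusted p = 0.86). It shares 84.5% of its exonic bases with the same-strand transcript Gm20427.

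Mt1 and Slc30a1 are known to be switched on by zinc through metal response elements, to which the factor Mtf1 binds. Their promoters are shown because both genes rose, with that of Slc30a5, another exporter that rose, for comparison (RefSeq, GRCm38.p6, 250 bases before to 50 after the annotated start, 5′ to 3′ on the gene's strand), with the core letters TGCGCNC or TGCACNC, on either strand, in capitals. They lie at chr8:94178839-94179138 (plus strand), chr1:191906531-191906830 (plus strand) and chr13:100833378-100833677 (minus strand).
Mt1: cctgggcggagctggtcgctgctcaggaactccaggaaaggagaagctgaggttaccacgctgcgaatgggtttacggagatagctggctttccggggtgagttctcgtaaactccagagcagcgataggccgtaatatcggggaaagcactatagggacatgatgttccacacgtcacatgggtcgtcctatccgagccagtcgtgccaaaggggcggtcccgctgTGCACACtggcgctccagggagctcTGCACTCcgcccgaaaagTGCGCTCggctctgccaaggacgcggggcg
Slc30a1: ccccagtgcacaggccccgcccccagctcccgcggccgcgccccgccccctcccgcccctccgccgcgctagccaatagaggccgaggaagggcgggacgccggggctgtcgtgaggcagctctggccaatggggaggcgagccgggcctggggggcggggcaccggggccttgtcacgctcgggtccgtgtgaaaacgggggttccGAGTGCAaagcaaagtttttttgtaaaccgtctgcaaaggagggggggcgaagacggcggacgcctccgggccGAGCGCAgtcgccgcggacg
Slc30a5: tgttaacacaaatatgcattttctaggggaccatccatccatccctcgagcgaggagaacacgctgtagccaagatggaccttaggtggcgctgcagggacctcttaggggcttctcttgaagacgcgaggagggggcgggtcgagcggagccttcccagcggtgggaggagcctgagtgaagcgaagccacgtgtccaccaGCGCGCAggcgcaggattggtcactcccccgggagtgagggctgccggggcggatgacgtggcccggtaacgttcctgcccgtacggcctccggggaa
There were 3 matches in Mt1, 2 in Slc30a1, both on the opposite strand, and 1 in Slc30a5. Such a match was found in 25.6% of 27018 promoters of this length, in 32.95% of the 176 members with a promoter in the table and in 11 of the 23 members that rose at E5.75 and had one. Member promoters were richer in CG pairs, with a median of 18 against 7 in all promoters, and the motif was chosen after the changes were known. Of 3 other motifs searched on both strands, the AP-2 core GCCNNNGGC was in 16.5% of all promoters, 26.1% of members and 5 of the 23, the octamer ATGCAAAT in 1.77%, 1.70% and 0, and the amino acid response core TGATGNAA in 4.05%, 3.41% and 0. A match is a run of letters and not a measured binding site.

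The remaining ion carriers included the other falling member. Slc4a3 (AE3), a chloride-bicarbonate exchanger, was at 2.58, 2.51 and 2.96 in sections 1, 3 and 4, at 1.43 in section 8 and at 0.25 or less in the others, 8 of 9 sections from section 10 on being listed at 0. It fell by 1.91 ± 0.63 (adjusted p = 0.0338), and 7 of 27 alternatives ended the call, those without section 1, 3, 4 or 18 included. Slc12a4 (KCC1), a potassium-chloride cotransporter, rose by 2.13 ± 0.68. The call of Slc12a4 was lost without section 1, 3, 4 or 19, and the gene shares 9.47% of its exonic bases with an antisense gene. Slc40a1 (ferroportin), the iron exporter, Slc39a8 (ZIP8) and Slc34a2, a phosphate carrier, did not exceed 3.24 in any section of E5.75, and none passed. The first 2 had changes of -0.33 and -0.85, and Slc34a2 was not tested. Of 8 genes of ion pumps and carrier chaperones, 4 rose at E5.75 and 0 fell, among them the sodium pump subunit Atp1b3 (2.93).

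Nucleoside carriers showed 1 rise at E5.75 and 1 fall at E5.5. Slc29a3 (ENT3), which empties nucleosides from lysosomes, was at 1.09 or less in sections 1 to 8 and at 0 to 2.19 in sections 10 to 19, with overlap, and rose by 1.48 ± 0.49 (adjusted p = 0.0344). Its call ended in 12 of 27 alternatives, those without section 1, 2, 3, 4, 15, 16 or 19 included. Slc29a2 (ENT2) had the highest mean FPKM of the class and ranged from 0 to 3.39 and from 1.61 to 3.66 on the respective sides, and its change of 1.89 ± 0.80 did not pass (adjusted p = 0.0919). Slc29a1 (ENT1), the broad surface carrier, was at 4.78 in section 3 and at 3.42 or less elsewhere (change 1.15 ± 0.94, adjusted p = 0.39). At E5.5 Slc28a3 (CNT3), a sodium-driven nucleoside importer, was at 5.91 in section 1, at 1.21 and 1.23 in sections 2 and 4 and at 0.57 or less from section 5 on. Slc28a3 fell by 3.72 ± 1.10 (adjusted p = 0.0191), and without section 1 the call was lost. Section 1 of E5.5 also had the highest log2 summed FPKM of visceral endoderm markers, 9.20 against 3.29 to 7.82 in the other sections, of distal and anterior visceral endoderm markers, 7.40 against 0.48 to 4.56, and of decidua markers, 7.57 against 0 to 4.36. Their part in the fall of Slc28a3 was not tested. Of 8 nucleoside salvage genes, 2 rose at E5.75, Aprt (4.64) and Adk (2.23), and 6 at E5.5.

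Monocarboxylate, organic ion and choline-like carriers added 5 of the rises at E5.75. Slc16a1 (MCT1), a lactate transporter, was at 0.48 to 3.39 in sections 1 to 8 and at 3.20 to 5.53 in sections 10 to 19, and rose by 3.57 ± 0.64 (adjusted p = 0.00054). Bsg (basigin), the chaperone it needs at the cell surface, rose by 3.16. Slc16a3 (MCT4), a lactate exporter with a higher mean FPKM than Slc16a1, ranged from 1.96 to 5.60 and from 3.77 to 5.63 on the respective sides and did not pass (1.11 ± 0.72, adjusted p = 0.28). Slc22a17, a receptor for the iron-binding protein lipocalin 2, was at 3.18 in section 1, at 0.19 or less in sections 2 to 8 and at 2.47 to 4.39 in sections 10 to 19. It rose by 4.10 ± 0.85 (adjusted p = 0.00177), in all 28 alternatives. Slc22a5 (OCTN2), the carnitine importer, lay at 0.39 or less and at 0.41 or more on the respective sides and rose by 2.08 ± 0.71. Slc16a13 (2.93 ± 0.83) and the choline transporter-like Slc44a2 (2.37 ± 0.78) completed the group. The call of Slc22a5 was lost without any 1 of sections 1 to 7, 14, 15 or 17, and that of Slc44a2 without section 1, 2, 4, 14 or 18.

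Few members were cleanly split by the gap at section 9. All of sections 10 to 19 lay above all of sections 1 to 8 for 3 of 163 members, Slc22a5, Slc25a4 and Slc38a4 (1.84%, beside 1.79% of all genes tested), and below them for 0 (beside 0.395%). With section 1 left out, the respective counts were 5, the added members being Slc16a6 and Slc22a17, and 2, Slc7a3 and Slc7a14, beside 2.04% and 0.741% of all genes. Slc16a6, a monocarboxylate carrier, was at 6.43 in section 1. By a quadratic term in section number, 3 members were higher in the middle sections of E5.75, beside 2.03% of all genes, and 0 were lower, beside 0.377% (limma); 4 had a lower middle at an unadjusted p under 0.05. Slc25a1 was listed at 0 in sections 1 to 3 and 19, reached 4.58 in section 7 and was at 3.48 to 4.26 from section 10 to 16. With detection as a covariate it did not pass (adjusted p = 0.232). The others were Slc25a39 and the zinc importer Slc39a9, both lost in 10 or more of 22 alternatives. Slc39a9 was at 0 in sections 1 to 4 and 19 and reached 2.56 in section 10.

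Of the 21 members that rose at E5.5 and the 27 that rose at E5.75, 11 were shared, 52.4% and 40.7% of the respective lists. Over all genes tested, 28.3% rose at E5.5 and 18.9% at E5.75. The overlap over all genes was not counted, so these shares cannot be called particular to the members. These were Slc7a1, Slc7a5, Slc38a4, Slc30a2, Slc39a6, Slc25a3, Slc25a4, Slc25a28, Slc25a39, Slc16a1 and Slc22a17. At E5.25 10 of them were tested and none passed, with changes from 1.52 for Slc30a2 to 6.38 ± 1.78 for Slc25a4 (adjusted p = 0.0568). Slc25a4 at E5.25 was listed at 0 in sections 1 and 2, at 3.96 and 0.40 in sections 3 and 4, and at 6.26, 4.77 and 6.09 in sections 6 to 8.

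No member passed at E5.25. Of 83 members tested, 0 rose and 0 fell, beside 0.378% and 0.028% of all genes (limma), and 33 members with a positive and 1 with a negative change had an unadjusted p under 0.05. The median change was 1.75, against 1.45 over all genes. Slc5a12, a lactate and pyruvate carrier, had that negative change (-4.74 ± 1.48, adjusted p = 0.0621). It was at 4.75 and 4.93 in sections 1 and 2 and listed at 0 in sections 3 to 8. Slc39a1 was at 1.29 or less in sections 1 to 4 and at 4.56 to 5.55 in sections 6 to 8 (change 5.33 ± 1.63, adjusted p = 0.0605). Slc7a14 and Slc3a2 were detected in all 7 sections, at 2.76 to 7.52 and 4.43 to 5.65. The count of rising members was 12 with a pseudocount of 0.1 and 8 without section 4, where 13 members were detected.

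In the VE libraries most members were listed at 0, as were most genes. Of 203 members, 158 (77.8%) were at 0 in both VE libraries, against 75.9% of all genes, and 7 reached an FPKM of 1 in both: Slc16a1, Slc16a3, Slc25a3, Slc25a4, Slc38a2, Slc3a2 and Slc7a14. Of 12 visceral endoderm markers, 5 were above 0 in VE of section 6, Gata6 the highest at 5.12, and 7 were listed at 0, the defining markers Amn and Ttr included. The log2 of their summed FPKM plus 1 was 5.73 there, against 5.38 and 4.35 in sections 6 and 7, and that of the distal and anterior visceral endoderm markers was 5.58, against 1.26 and 2.08. The parietal endoderm sum was 8.29 in the same library, and Rn45s, the ribosomal RNA precursor, took 62.2% of its summed FPKM. In VE of section 7, 8 of the 12 visceral endoderm markers were above 0, with Amn at 7.71 and Apoa1 at 7.01, and their sum was 9.02. Epiblast markers summed to 7.58 and 7.50 in VE of sections 6 and 7, against 9.36 and 9.20 in the sections, with Pou5f1 at 6.73 in VE of section 7. The highest members by mean were Slc25a3, Slc3a2, Slc7a14, Slc25a4, Slc25a39 and Slc16a1, and the libraries differed widely. Slc25a3 was at 9.28 and 4.46 in VE of sections 6 and 7, and Slc25a39 at 8.87 and 0. Slc7a14 was close in both, at 6.52 and 6.45.

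Against sections 6 and 7, 37 of 63 tested members were lower in VE and 0 higher, beside 56.6% and 0.624% of all genes (limma, 2 against 2 libraries), and 0 had an unadjusted p under 0.05 for higher. Of the 37, 31 were listed at 0 in both VE libraries. These entered the test only through sections 6 and 7, so lower was the only direction open to them. At the filter's FPKM of 1, 86 and 82 members were detected in sections 6 and 7, against 21 and 22 in VE. The class counts below share this limit. The calls went to 0 after quantile normalization, as did those of all 6413 genes tested. With the section number as a block 40 members were lower. Without section 6 or section 7, members at 0 in both VE libraries could not meet the filter. In those fits 18 and 20 members were tested, so they cannot tell whether such calls hold. By class, 8 of 13 amino acid, 10 of 16 ion and metal, 9 of 15 mitochondrial and 1 of 1 nucleoside carriers were lower. Slc39a7 was at 5.58 and 5.39 in sections 6 and 7 and at 1.35 and 0 in VE (difference -4.80 ± 0.72, adjusted p = 0.0148). Slc1a5, Slc25a5, Slc7a3 and Slc39a10 were at 3.20 to 4.90 in the sections and at 0 in both VE libraries. Slc16a3 was lower at 1.24 and 2.32, against 4.55 and 4.27.

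Both VE values were above both section values in 4 members (1.97%, beside 1.79% of all genes) and below in 92 (45.3%, beside 49.2%). The 4 were Slc3a2, at 7.60 and 5.61 in VE against 5.08 and 4.95, Slc16a1, at 3.45 and 5.21 against 2.74 and 3.29, Slc7a14 and Slc28a3. None passed, the differences of Slc3a2 and Slc16a1 being 1.59 ± 1.12 and 1.31 ± 0.94 (adjusted p = 0.339 and 0.348, limma). Several members were high in 1 VE library and at 0 in the other. Slc44a3, a choline transporter-like gene, was at 7.22 in VE of section 7, and Slc34a2, the phosphate carrier, at 3.64 there, both with 0 in VE of section 6 and in sections 6 and 7. Slc26a10 was at 7.17, Slc25a37 (mitoferrin 1) at 7.66 and Slc44a2 at 7.46 in VE of section 6 and at 0 in VE of section 7. These 5 were chosen after their values were seen.

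**Figure D5:**
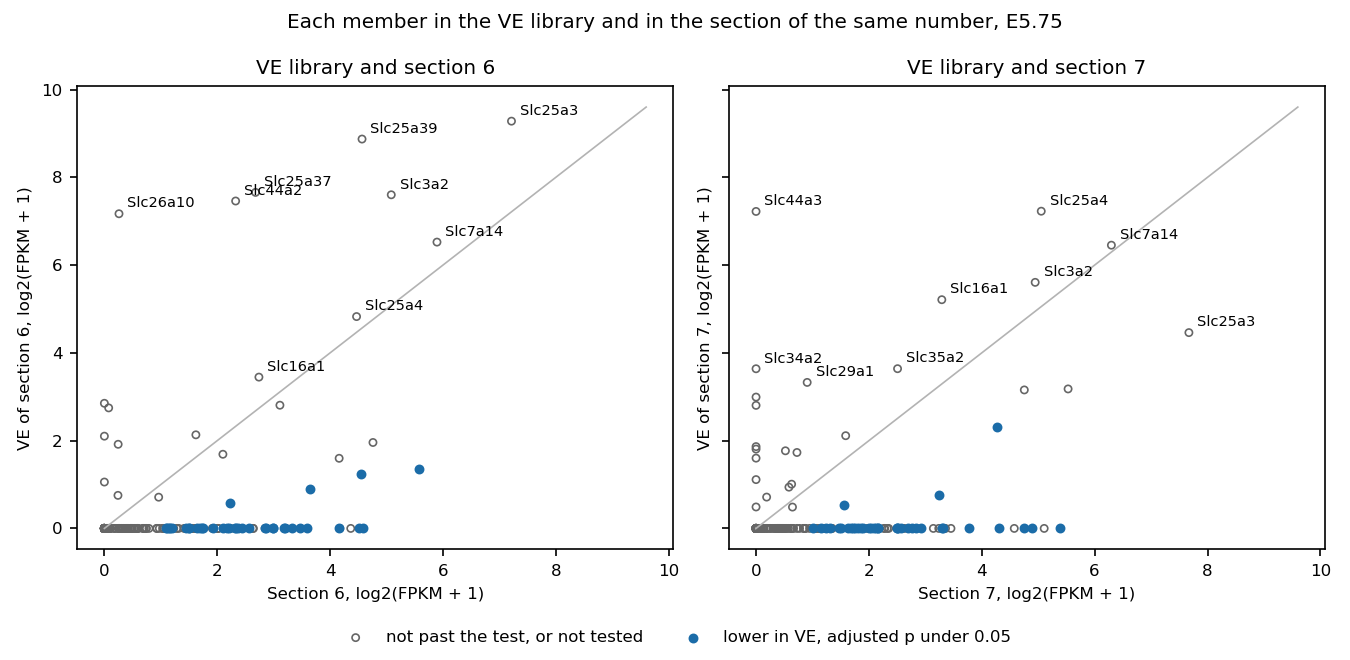
Level of each member in the VE library (vertical axis) against the section of the same number (horizontal axis) at E5.75, as log2(FPKM + 1), for section 6 (left) and section 7 (right); the line marks equal values. Filled points are the 37 members lower in VE by limma, most at 0 on the vertical axis, and the highest members in VE are named.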

How the data were processed

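Smart-seq2 libraries of laser-captured sections from mouse embryos of 3 stages, and 2 VE libraries of the oldest stage, were used. The deposited values are log2(FPKM + 1) per gene in 1 table per stage, from the authors' processing. TopHat2 2.0.4, Cufflinks 2.0.2 and the mm10 build were used, per the submitters' processing notes. The step that joined or averaged parts of 1 section at E5.5 is not given in the sources used here. The highest columns there are numbered 10 and 11, and their titles name parts A and B of section 10. The source label of the second names section 11, so the labels conflict, and the columns were averaged as section 10. Read as sections 10 and 11 instead, they gave 29 rising members rather than 21, and 1 falling. No counts are given, so depth is unknown, and a value of 0 can be a failed estimate.

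Stages were tested separately, with limma 3.58.1 in R 4.3.3 (eBayes with trend), over all genes reaching an FPKM of 1 in 2 or more fitted libraries. A line in section number, scaled from 0 to 1 over the stage, gave the change. A quadratic term gave the curved profiles, and VE was compared with sections 6 and 7. P-values were adjusted over all genes by Benjamini-Hochberg with a threshold of 0.05. They measure the spread among sections of what may be 1 embryo. The script was tested on simulated data. Alternatives were pseudocounts of 0.1 and 5, filters on low values, other scalings and other limma settings. Further ones were the count of detected genes as a covariate (detection) and leaving out each section or VE library. Figures were drawn in Python 3.11.15 with matplotlib 3.10.9.

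The members, classes and gene lists were chosen with earlier results of these data known. Members were named by rule: the 10 largest rises and falls past the threshold per stage, up to 4 per class by p, up to 4 per direction of curvature, the 6 largest differences each way and the 6 highest in VE, the highest of each class by mean FPKM, and 12 set members. Slc1a3, Slc5a12, Slc9a3r2, Slc12a4, Slc16a6, Slc25a11, Slc25a33, Slc25a38, Slc30a1, Slc30a5, Slc38a7, Slc38a10, Slc25a37, Slc26a10 and Slc44a3 were added after their values were seen. Some genes are counted but not reported here by name. Promoters came from RefSeq (GRCm38.p6), and 176 of 237 members matched by symbol. Exon overlaps came from GENCODE vM21, and Smart-seq2 keeps no strand.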

Additional observations from a re-analysis of the deposited data

Results flagged for a closer look

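Among the members named by the rule, 5 of 17 at E5.25 and 2 of 28 at E5.5 held 1 section whose gap to the nearest other was above Dixon's 95% critical value for the number of sections. Over all members not constant within the stage, 54 of 147 (36.7%) did at E5.25 and 48 of 184 (26.1%) at E5.5. For normally spread replicates chance gives about 1 in 20 such groups, but sections are positions along an axis, and many values lie at the floor of 0. A member above 0 in 1 section only passes by construction, so these shares cannot be set against 1 in 20. At E5.25, Slc34a2 was at 0 in 5 of 7 sections and Slc40a1, Slc39a8 and Slc7a3 in 4. At E5.25, section 2 stood apart for Slc40a1 (5.98), Slc39a8 (2.54) and Slc34a2 (1.92). In the same stage section 1 stood apart for Slc35a3 (6.80), a carrier of a nucleotide sugar, and section 4 for Slc7a3 (5.34). At E5.5 section 1 stood apart for Slc28a3 (5.91) and Slc3a2 (6.59). These were sections with few detected members, 21, 38 and 13 in sections 1, 2 and 4 of E5.25 and 19 in section 1 of E5.5, and the part of this in the values was not tested.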

How the results depend on the processing

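Each section number was fitted as 1 value, at E5.5 mostly from joined or averaged parts, so leaving it out leaves its position unmeasured. At E5.25 the count of rising members was 12 with a pseudocount of 0.1, 5 with a filter at FPKM 5, 4 without the limma trend and 0 to 8 on leaving out each section, and that of falling members was 1, 1, 0 and 0 to 1. At E5.5 the rising count was 36 and 12 with pseudocounts of 0.1 and 5, 4 after quantile normalization, 9 on a common FPKM sum, 0 with detection as a covariate, 1 without the 2 lowest sections and 9 to 22 on leaving out each section. The falling count there was 0 with a pseudocount of 5, without a filter, with the filter at FPKM 5, with the covariate and without the 2 lowest sections, and 0 to 2 on leaving out each section. At E5.75 the rising count was 13 after quantile normalization, 11 with the covariate and 21 to 35 on leaving out each section. The falling count was 5 after quantile normalization, 4 without the 2 lowest sections and 1 to 4 on leaving out each section, 4 without section 1 and 1 without section 3 or 18. Curved profiles numbered 5 and 1 with pseudocounts of 0.1 and 5, 0 with the covariate, 1 without the 2 lowest sections and 1 to 4 on leaving out each section. With detection as a covariate 8 of the 51 called changes at E5.5 and E5.75 reversed, those of Slc25a39 to -0.66 and Slc30a5 to -0.051 at E5.75 and, for E5.5, those of Slc25a11 to -0.94, Slc25a28 to -0.089, Slc25a39 to -0.052, Slc25a1 to -0.20, Slc11a2 to -0.057 and Slc28a3 to 2.43. The cause was not tested.

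The section numbers pair each VE library with a section of the same number, 2 pairs in all. With the replicate block 40 members were lower in VE, 35 of them shared with the fit without it, and 0 were higher. The lower count was 0 after quantile normalization, 17 against sections 3 to 8, and 0 to 50 on leaving out each library, 0 without section 6 or 7. The higher count was 0 to 6 on leaving out each library, 2 without VE of section 6 and 6 without VE of section 7. Without VE of section 7 the differences of Slc25a3 and Slc25a39 reversed to 1.84 and 4.04, and without VE of section 6 they were -2.98 and -4.84. A lone library is assumed there to vary like the other group.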
